A study of Mus musculus with 6 samples.

Results

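Transcript levels of 10 genes that govern the passage through the G1 phase of the cell cycle were examined in BACH1-KO and WT mouse embryonic stem cells. The genes were taken by symbol from the deposited table, and all 10 had a row among its 18518 gene symbols. They are the D-type cyclins Ccnd1, Ccnd2 and Ccnd3 with their kinases Cdk4 and Cdk6, the E-type cyclins Ccne1 and Ccne2 with their kinase Cdk2, the inhibitor Cdkn1b, which encodes p27, and the retinoblastoma gene Rb1. RNA sequencing was done on 6 libraries of E14Tg2A, an established mouse embryonic stem cell line, 3 from BACH1-KO and 3 from WT cells. The knockout cells carry Bach1 disrupted by CRISPR/Cas9, made with a puromycin-selected plasmid and sorted as single-cell clones. Cells of either genotype spent 2 days in serum medium with 200 units/ml of leukemia inhibitory factor (LIF). How many clones the knockout libraries come from is not said in the labels, nor is it said that libraries came from separate cultures, so the p-values speak only of how far these libraries scatter, and that scatter may be technical.

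D-type cyclins bind CDK4 or CDK6, and E-type cyclins bind CDK2. These kinases phosphorylate the pocket proteins RB, p107 and p130, which otherwise hold E2F transcription factors inactive, and p27 binds and restrains cyclin E with CDK2. Mouse embryonic stem cells are known for a short G1 phase, with high cyclin E and CDK2 activity and RB kept mostly phosphorylated, and G1 lengthens as these cells leave the pluripotent state.

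Levels are in FPKM (fragments scaled to library size and transcript length), so that levels of different genes can be compared per length. The absolute depth is unknown. Log2(FPKM + 1) was tested with limma over the 12187 genes averaging 1 FPKM or more, and a gene is said to have risen or fallen where its adjusted p was under 0.05. Genes listed above 0 numbered 17276 to 17455 in BACH1-KO and 16047 to 16159 in WT libraries, and Pearson's r between libraries across tested genes, which are not independent replicates, was 0.992 to 0.994 within BACH1-KO, 0.991 to 0.994 within WT and 0.929 to 0.935 between the genotypes. Bach1 transcript was at 10.5, 10.4 and 10.4 FPKM in BACH1-KO, against 7.97, 8.39 and 8.47 FPKM in WT, which does not check an edit of the coding sequence. All 8 stem cell markers were expressed in every library, summing to 6730 to 6990 FPKM in BACH1-KO and 10500 to 11200 FPKM in WT. Most of that sum was Dppa5a, at a mean of 4280 FPKM in BACH1-KO and 6610 FPKM in WT. In this list 7 markers fell, Tdgf1 furthest (log2 fold change -2.22). Nanog rose slightly, with 313 ± 3.68 FPKM in BACH1-KO and 298 ± 3.96 FPKM in WT (SD, n = 3 each). Of 8 fibroblast feeder markers 2, Thy1 and Pdgfrb, were expressed enough to test and both fell, and they carry most of the list's sum of 12.7 to 13.4 FPKM in BACH1-KO and 22.8 to 24.1 FPKM in WT. The others averaged under 1 FPKM in either genotype. Of these, Col1a1 was lower in every BACH1-KO library than in any WT library, while Dcn, Col1a2, Col3a1, Lum and Postn were higher in every BACH1-KO library, with Dcn at 0.764 ± 0.0944 FPKM in BACH1-KO and 0.0664 ± 0.0806 FPKM in WT (SD, n = 3 each) and Col3a1 and Lum listed at 0 in WT. All 20 hepatocyte markers rose, summing to 987 to 1020 FPKM in BACH1-KO and 11.4 to 18.3 FPKM in WT, where Apoh and Tdo2 were listed at 0. The part of transcripts of other cell types in the values of the G1 genes was not tested.

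Of the 10 genes, 4 rose in BACH1-KO cells (Ccnd2, Cdkn1b, Rb1 and Cdk4), 5 fell (Ccnd3, Cdk6, Cdk2, Ccne1 and Ccnd1) and Ccne2 did not pass the test. Of all tested genes 77.0% passed, 37.3% higher and 39.7% lower, so that 9 of 10 is close to what the whole transcriptome showed. The libraries of the genotypes did not overlap for the same 9 genes, and for 79.3% of all tested genes. Tested against a fold change of 1.5, Ccnd2, Cdkn1b and Rb1 were higher and Ccnd3 lower, while 10.9% of all tested genes were higher and 8.16% lower. That stricter test did not call the changes of Ccnd1, Cdk2, Cdk4, Cdk6 and Ccne1. The median log2 fold change was -0.20 over the 10 genes and -0.01 over all tested genes. In bulk RNA, a different share of cells in a phase or state and a different amount of RNA per cell cannot be told apart. For each of the 9 genes an exact two-sided permutation test reached p = 0.1, below which groups of 3 and 3 cannot go.

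**Figure D1:**
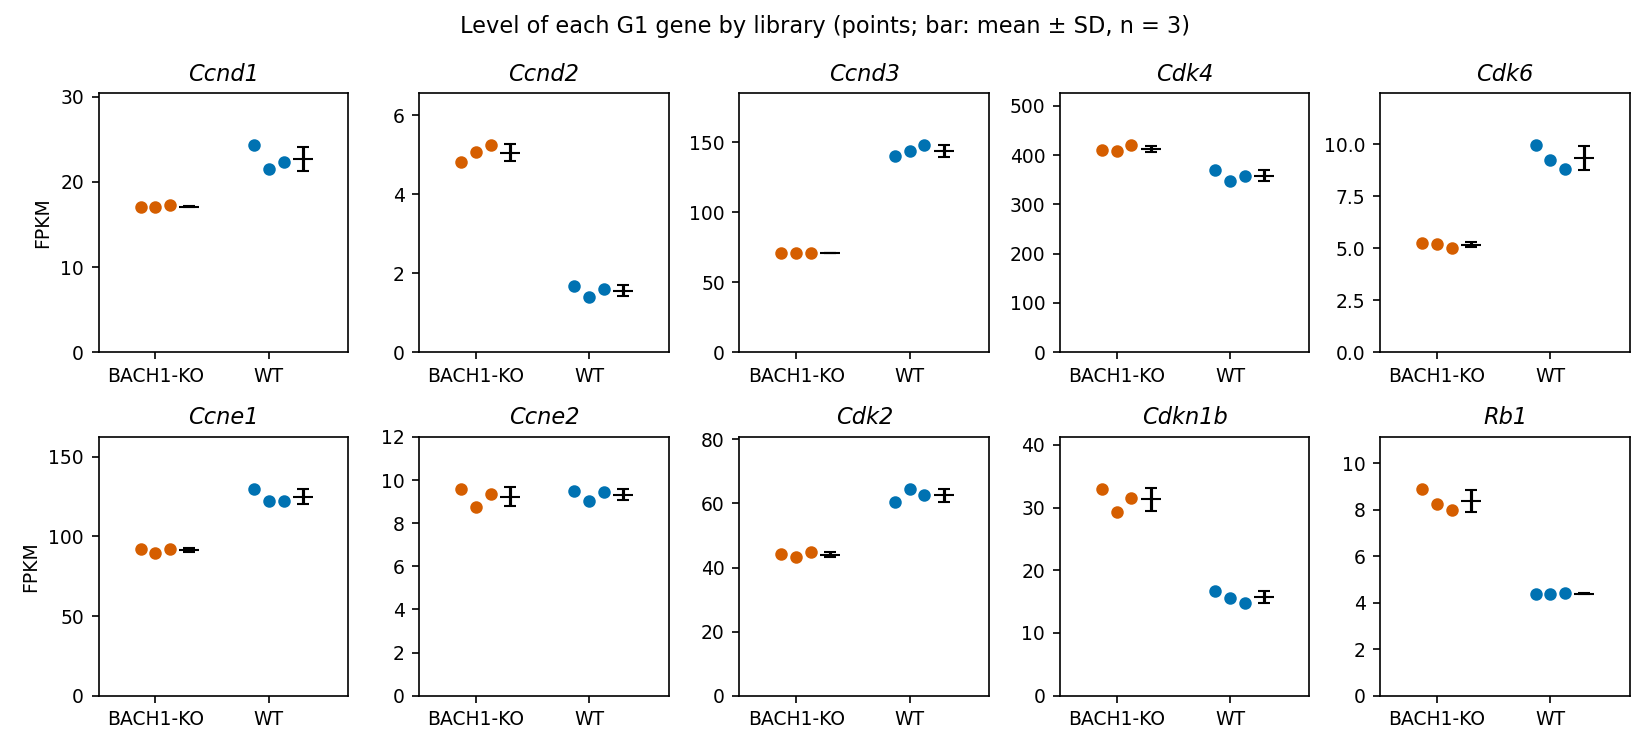
FPKM of each G1 gene (y axis, linear and starting at 0) in the 3 BACH1-KO (orange) and 3 WT libraries (blue), with the mean ± SD as a black bar beside the points. The points of the genotypes are apart in every panel but that of Ccne2, where they share the range around 9 FPKM.

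Cyclin D3 was the most abundant D-type cyclin and had the largest fall of the 10 genes, while cyclin D2, the least abundant, rose. Ccnd3 was at 70.8, 70.7 and 70.6 FPKM in BACH1-KO, against 140, 144 and 148 FPKM in WT libraries. All knockout libraries were thus far below all WT libraries and nearly equal to each other. That is a log2 fold change of -1.02 (SE 0.03, limma adjusted p = 8.19e-08), a ratio of means of 0.490. It is encoded on the plus strand of chromosome 17 (mm10, 47505051 to 47599691). Its last annotated bases overlap Bysl, a ribosome biogenesis gene on the other strand that rose, with 18.2 FPKM in BACH1-KO and 13.7 FPKM in WT.

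Ccnd1, the D-type cyclin best known as a target of growth factor signalling, fell less. It stood at 17.1, 17.1 and 17.3 FPKM in BACH1-KO and at 24.3, 21.5 and 22.3 FPKM in WT libraries. The knockout libraries were again below every WT library, with a log2 fold change of -0.38 (SE 0.05, limma adjusted p = 1.77e-04). It is encoded on the minus strand of chromosome 7 (mm10, 144929931 to 144939925). The annotated gene LTO1 of the other strand overlaps Ccnd1 by 1771 bases and had no row under that symbol.

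Ccnd2 rose to 4.82, 5.08 and 5.24 FPKM in BACH1-KO, against 1.68, 1.40 and 1.61 FPKM in WT. All knockout libraries were higher, and Ccnd2 still had the lowest mean level of the 10 genes in both genotypes. The log2 fold change on the log2(FPKM + 1) scale was 1.24 (SE 0.07, limma adjusted p = 1.60e-06). Since adding 1 understates the change of a low gene, the ratio of mean FPKM, 3.23, is the larger measure. It is encoded on the minus strand of chromosome 6 (mm10, 127125162 to 127152193).

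Together the D-type cyclins summed to 92.7, 92.9 and 93.1 FPKM in BACH1-KO and 166, 167 and 172 FPKM in WT, a ratio of 0.552. Their mix also differed. Ccnd3 made up 76.1% ± 0.279 of the sum in BACH1-KO and 85.6% ± 1.09 in WT (SD, n = 3 each). Ccnd1 made up 18.5% ± 0.0690 in BACH1-KO and 13.5% ± 1.02 in WT, and Ccnd2 5.43% ± 0.220 in BACH1-KO and 0.928% ± 0.0891 in WT. These sums and shares are descriptions of the chosen genes and carry no test.

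**Figure D2:**
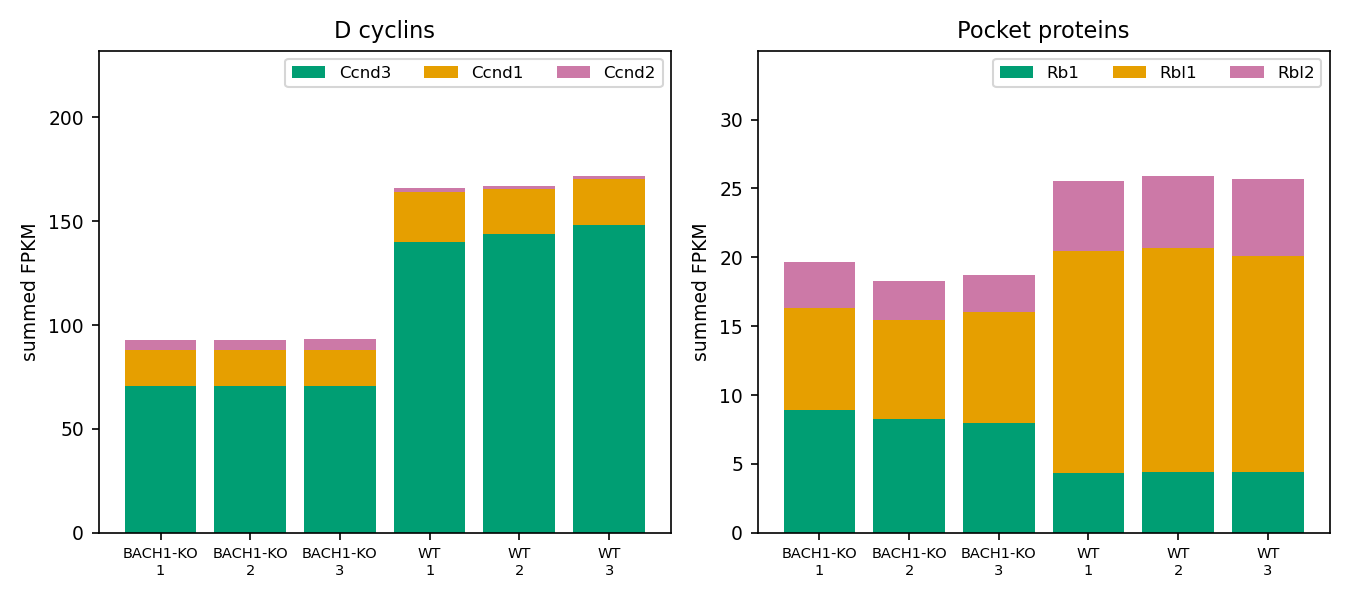
Summed FPKM (y axis, from 0) of the D-type cyclins (left) and of the pocket proteins (right) in each library, split by gene. The D cyclin bars reach 92.7 to 93.1 in BACH1-KO and 166 to 172 in WT, and the Rb1 part of the pocket protein bars is larger in BACH1-KO although the bars are lower.

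The kinases that partner D-type cyclins moved in opposite directions and differ widely in level. Cdk4 was the most abundant of the 10 genes, at 411, 409 and 420 FPKM in BACH1-KO and 370, 347 and 358 FPKM in WT libraries. The genotypes did not overlap, but the rise was small, with a log2 fold change of 0.20 (SE 0.03, limma adjusted p = 4.96e-04). Cdk6 stood at 5.26, 5.19 and 5.03 FPKM in BACH1-KO, against 9.96, 9.23 and 8.82 FPKM in WT, and fell with a log2 fold change of -0.75 (SE 0.06, limma adjusted p = 8.96e-06). Cdk6 gave 1.23% ± 0.0439 of the Cdk4 and Cdk6 sum in BACH1-KO and 2.54% ± 0.118 in WT (SD, n = 3 each), so Cdk4 supplied nearly all of it in both. The sum was 418 ± 5.66 FPKM in BACH1-KO and 368 ± 12.0 FPKM in WT.

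The transcripts of cyclin E1 and CDK2 fell, and that of cyclin E2 did not pass the test. Ccne1 was at 92.4, 89.7 and 92.2 FPKM in BACH1-KO and 130, 122 and 122 FPKM in WT libraries. All knockout libraries were lower (log2 fold change -0.44, SE 0.04, limma adjusted p = 8.75e-06). Ccne2 was at 9.60, 8.75 and 9.35 FPKM in BACH1-KO, against 9.49, 9.03 and 9.44 FPKM in WT. Its libraries overlapped, and the log2 fold change of -0.01 had a 95% interval of -0.14 to 0.11 (limma adjusted p = 0.834). Ints8, an Integrator subunit gene that overlaps Ccne2 on the other strand, fell over the same libraries, with 24.5 FPKM in BACH1-KO and 35.9 FPKM in WT. The E-type cyclins summed to 101 ± 1.92 FPKM in BACH1-KO and 134 ± 4.69 FPKM in WT, with 90.8% ± 0.262 of it from Ccne1 in BACH1-KO and 93.0% ± 0.211 in WT (SD, n = 3 each). E-type cyclin transcript thus exceeded the D-type sum of 92.9 ± 0.231 FPKM in BACH1-KO, whereas in WT it was under the D-type sum of 168 ± 3.41 FPKM.

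Cdk2 stood at 44.1, 43.3 and 44.7 FPKM in BACH1-KO, against 60.5, 64.6 and 62.6 FPKM in WT. Every knockout library was below every WT library, with a log2 fold change of -0.50 (SE 0.04, limma adjusted p = 5.06e-06). Cdk2 and Cdk4 both lie on chromosome 10 (mm10, 128697939 to 128705031, minus strand, and 127063534 to 127067920, plus strand) and changed in opposite directions. Each overlaps a gene of the other strand, Pmel at the start of Cdk2 and Tspan31 at the end of Cdk4. Tspan31 was at 71.2 FPKM in BACH1-KO and 69.2 FPKM in WT and did not pass the test (limma adjusted p = 0.395). Pmel fell, with 12.4 FPKM in BACH1-KO and 14.6 FPKM in WT. The labels do not say that strand was used in counting, so reads in overlaps cannot be assigned with certainty. The same limit holds for Ccnd1, Ccnd2 and Cdk6, which also overlap annotated genes of the other strand.

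Promoter sequence from RefSeq (build GRCm38.p6) was held for 6 of the 10 genes, in 7 windows since Ccnd3 has a pair of annotated starts. The 250 bases before each start were searched on both strands for TTCNNNGAA, a STAT site, TGANTCA, the core bound by AP-1 and by BACH1 with small MAF proteins, CACGTG, the E-box bound by MYC, and TTTCCCGC and TTTGGCGC, both E2F sites. The STAT letters were found in 7.02% of all 32851 promoter windows, the TGANTCA core in 6.75%, the E-box in 6.02%, TTTCCCGC in 0.895% and TTTGGCGC in 0.417%. The STAT letters, the TGANTCA core and TTTGGCGC were in no window of these 6 genes, which says only that those letters are absent there. The E-box occurred in Cdk6 and in Cdk4, and TTTCCCGC in Cdk2. Sequences are printed 5′ to 3′ on the strand of the gene, with motif matches in capitals. The kinases of chromosome 10 are shown because they changed in opposite directions and hold different motifs. Whether the motifs bear on the changes was not tested. Cdk4 is at chr10:127063285-127063534 and has 4 E-boxes, beginning 172, 118, 98 and 11 bases before the start, and 4 or more were found in 0.0213% of all windows. The cutoff of 4 is the count of Cdk4 itself, so that share is only a description. This window of Cdk4 had a GC content of 64.4%, above the median of 52.4% over all windows, and the share was not matched for GC. Cdk2 is at chr10:128705052-128705301, minus strand, with the E2F letters read on the opposite strand, beginning 140 bases before the start.
Cdk4: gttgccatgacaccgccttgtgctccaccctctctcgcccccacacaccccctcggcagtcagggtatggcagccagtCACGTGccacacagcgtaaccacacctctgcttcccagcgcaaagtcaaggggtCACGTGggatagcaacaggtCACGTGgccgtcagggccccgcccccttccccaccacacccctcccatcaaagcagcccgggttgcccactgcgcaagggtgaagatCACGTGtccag
Cdk2: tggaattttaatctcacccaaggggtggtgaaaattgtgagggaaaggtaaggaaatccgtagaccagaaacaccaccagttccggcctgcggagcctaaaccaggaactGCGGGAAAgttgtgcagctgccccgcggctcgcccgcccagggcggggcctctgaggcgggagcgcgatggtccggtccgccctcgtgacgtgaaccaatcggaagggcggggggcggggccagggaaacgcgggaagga
Ccnd3 (the upstream start, at chr17:47504801-47505050) and Cdkn1b (chr6:134920151-134920400) are shown as the promoters of the gene that fell most and of the gene with the largest rise among those with a window. Neither holds a match. Their GC content was 59.6% for this window of Ccnd3 and 64.4% for Cdkn1b, beside a median of 52.4% over all windows. The other window of Ccnd3, at chr17:47593217-47593466, had 64.8%. Which start was in use in these cells was not tested.
Ccnd3: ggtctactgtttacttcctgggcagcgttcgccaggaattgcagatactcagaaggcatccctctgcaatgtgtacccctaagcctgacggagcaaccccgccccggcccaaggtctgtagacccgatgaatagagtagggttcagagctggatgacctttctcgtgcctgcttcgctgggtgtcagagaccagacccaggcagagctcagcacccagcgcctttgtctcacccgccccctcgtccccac
Cdkn1b: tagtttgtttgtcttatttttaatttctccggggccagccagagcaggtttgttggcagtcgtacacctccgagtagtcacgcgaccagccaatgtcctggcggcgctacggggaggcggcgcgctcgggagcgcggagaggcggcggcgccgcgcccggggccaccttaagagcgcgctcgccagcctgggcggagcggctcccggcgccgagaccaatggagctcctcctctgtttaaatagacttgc

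Cdkn1b, the gene of the inhibitor p27, rose in BACH1-KO. It was at 33.0, 29.3 and 31.5 FPKM in BACH1-KO and 16.7, 15.6 and 14.8 FPKM in WT libraries. The lowest knockout library was well above the highest WT library. That is a log2 fold change of 0.95 (SE 0.06, limma adjusted p = 2.23e-06), a ratio of means of 1.99. Set against the D-type cyclin sum of the same library, Cdkn1b came to 35.6%, 31.6% and 33.8% of it in BACH1-KO and 10.1%, 9.36% and 8.58% in WT, and against the D-type and E-type sum together to 16.1% ± 0.812 in BACH1-KO and 5.19% ± 0.301 in WT (SD, n = 3 each). These are ratios of transcripts, and p27 is also known to be set by protein breakdown.

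Rb1 rose while both of its relatives fell. Rb1 stood at 8.91, 8.24 and 7.99 FPKM in BACH1-KO, against 4.37, 4.39 and 4.42 FPKM in WT, with no overlap and a log2 fold change of 0.80 (SE 0.06, limma adjusted p = 5.30e-06). The gene spans chromosome 14 (mm10, 73183673 to 73325822, minus strand), and 2 expressed genes of the other strand overlap it and also rose. Rcbtb2 had 10.1 FPKM in BACH1-KO and 4.76 FPKM in WT (log2 fold change 0.95), and Lpar6 had 2.55 FPKM in BACH1-KO and 0.656 FPKM in WT (log2 fold change 1.10). Without strand, the part of their reads in the Rb1 value was not tested.

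Rbl1, which encodes p107, was at 7.41, 7.20 and 8.01 FPKM in BACH1-KO and 16.1, 16.3 and 15.7 FPKM in WT, and fell with a log2 fold change of -1.00 (SE 0.05, limma adjusted p = 8.50e-07). Rbl2, which encodes p130, was at 3.31, 2.81 and 2.72 FPKM in BACH1-KO and 5.09, 5.23 and 5.59 FPKM in WT (log2 fold change -0.68, SE 0.08, limma adjusted p = 7.13e-05). The genotypes did not overlap for either gene. Rb1 made up 44.4% ± 1.49 of the summed FPKM of the 3 pocket proteins in BACH1-KO and 17.0% ± 0.124 in WT, and Rbl1 40.0% ± 2.55 in BACH1-KO and 62.4% ± 1.08 in WT (SD, n = 3 each). The sum itself was 18.9 ± 0.700 FPKM in BACH1-KO and 25.8 ± 0.188 FPKM in WT.

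Ccnd2 and Cdkn1b share chromosome 6, whose 541 tested genes had a median log2 fold change of 0.31, with 59.3% higher and 17.6% lower. The medians of the other autosomes and of the X chromosome lay between -0.13 and 0.09. Ccnd2 exceeded the median of its chromosome by 0.93 and Cdkn1b by 0.64, and with chromosome medians taken off both were still called (limma adjusted p = 9.70e-06 for Ccnd2 and 2.40e-05 for Cdkn1b). Of the tested genes within 1 Mb of Ccnd2, 5 of 6 rose and 1 fell, with a median log2 fold change of 0.54. Around Cdkn1b 3 of 11 rose, 4 fell and 4 did not pass, with a median of 0.05. Around Ccnd1 6 of 7 neighbours fell and 1 rose, with a median of -0.59. Near Rb1 4 of 6 rose, the overlapping Rcbtb2 and Lpar6 among them, and 2 fell. Near Ccnd3 14 of 37 rose, 11 fell and 12 did not pass. Beside Ccne1 3 of 4 rose and 0 fell, and beside Ccne2 7 of 15 rose and 4 fell. Beside Cdk2 13 of 44 rose and 24 fell. For Cdk4 11 of 28 neighbours rose and 10 fell, and for Cdk6 4 of 11 rose and 3 fell. These counts stand beside 37.3% higher and 39.7% lower over all tested genes, so most neighbours of any gene would pass. The shares were 38.5% higher and 35.1% lower on chromosome 7, and 37.8% higher and 43.2% lower on chromosome 10.

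Direction also went with level across the whole table. Of 3574 tested genes with a mean of 1 to 5 FPKM over the 6 libraries, the band of Ccnd2, 44.7% rose and 27.4% fell. Of 1051 genes above 100 FPKM, the band of Ccnd3, Cdk4 and Ccne1, 28.0% rose and 57.6% fell. By mean level the 10 genes ran in BACH1-KO from Cdk4 through Ccne1, Ccnd3, Cdk2, Cdkn1b, Ccnd1, Ccne2, Rb1 and Cdk6 to Ccnd2, and in WT from Cdk4 through Ccnd3, Ccne1, Cdk2, Ccnd1, Cdkn1b, Cdk6, Ccne2 and Rb1 to Ccnd2. Neighbours in that order whose libraries overlapped were Ccne2 with Rb1 and Cdk6 with Ccnd2 in BACH1-KO, and Cdk6 with Ccne2 in WT. Ccne1 thus lay above Ccnd3 in BACH1-KO and below it in WT, and Cdkn1b above Ccnd1 in BACH1-KO and below it in WT, each without overlap.

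**Figure D3:**
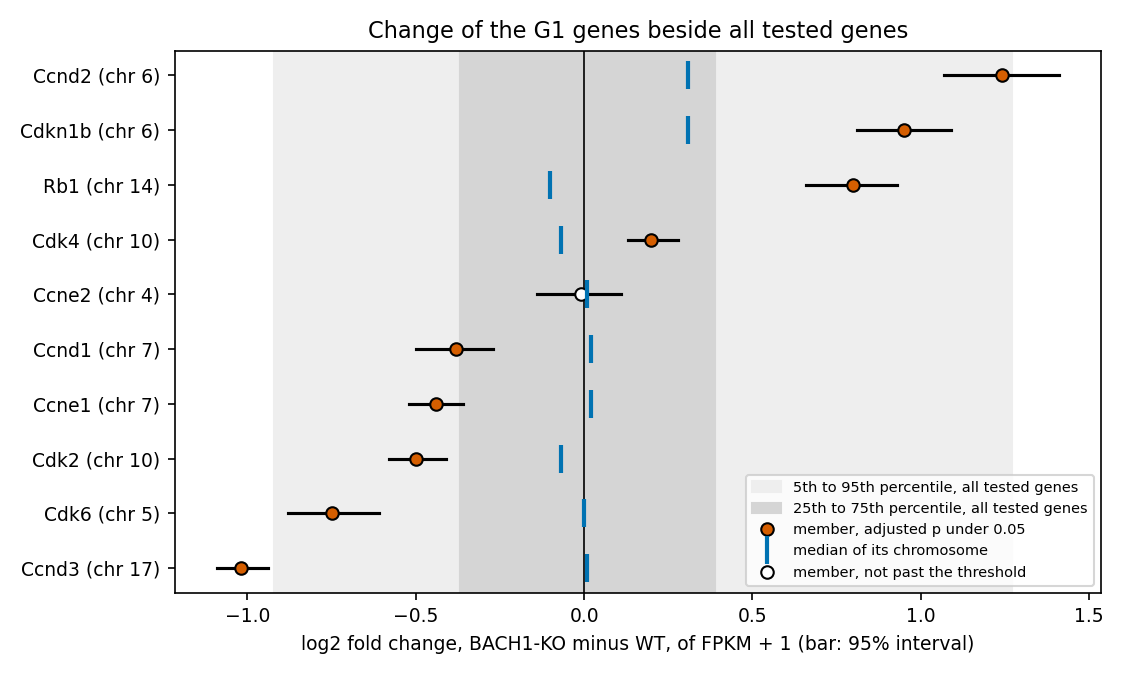
Log2 fold change of FPKM + 1, BACH1-KO minus WT (x axis), of each G1 gene with its 95% interval, the median of its chromosome (blue tick) and the spread of all tested genes (grey bands, 25th to 75th and 5th to 95th percentile). Ccnd3 at -1.02 lies outside the 5th to 95th percentile range of -0.92 to 1.27, Ccne2 covers 0, and Ccnd2 and Cdkn1b lie to the right of the chromosome 6 median of 0.31.

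Genes linked to the G1 machinery moved in both directions. The lists were of CDK inhibitors, pocket proteins, E2F and DP factors, and genes acting for or against CDK activation. Further lists were of factors of cyclin and p27 turnover, cyclins and kinase of S and M phase, and E2F target genes. Together they held 55 genes, of which 54 were tested, 19 rose, 27 fell and 8 did not pass. Their median log2 fold change was -0.10. The share of all tested genes was 37.3% higher and 39.7% lower.

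Of the 6 other CDK inhibitors, 2 rose, 1 fell and 3 did not pass, and none moved as far as Cdkn1b. Cdkn1a, which encodes p21, was at 50.2, 48.7 and 48.5 FPKM in BACH1-KO and 38.3, 45.4 and 44.3 FPKM in WT (log2 fold change 0.20, SE 0.06, limma adjusted p = 0.0161). Cdkn1c, which encodes p57, was at 11.4 ± 0.760 FPKM in BACH1-KO and 11.4 ± 0.560 FPKM in WT (SD, n = 3 each; limma adjusted p = 0.991). Among the INK4 inhibitors, which bind CDK4 and CDK6, Cdkn2d rose slightly, with 28.0 ± 1.37 FPKM in BACH1-KO and 24.1 ± 2.44 FPKM in WT. Cdkn2a, whose row joins the INK4A and ARF transcripts, fell to 24.6 ± 1.06 FPKM in BACH1-KO, against 31.0 ± 2.60 FPKM in WT. Cdkn2b and Cdkn2c did not pass.

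Among E2F and DP factors 5 of 10 rose, 4 fell and 1 did not pass. The larger changes were falls. E2f2, an activator, was at 2.66 ± 0.396 FPKM in BACH1-KO and 5.69 ± 0.790 FPKM in WT (log2 fold change -0.87). E2f4, which works with p107 and p130 in repression, was at 74.1 ± 2.83 FPKM in BACH1-KO and 117 ± 1.59 FPKM in WT (log2 fold change -0.65), and E2f8, an atypical repressor, at 10.3 ± 0.818 FPKM in BACH1-KO and 15.2 ± 1.86 FPKM in WT (log2 fold change -0.51). E2f1, named after its values were seen, rose slightly to 22.5 ± 1.12 FPKM in BACH1-KO, against 19.1 ± 1.38 FPKM in WT (SD, n = 3 each).

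In the turnover list 4 of 10 tested genes rose, 5 fell and 1 did not pass. Rbx1, the RING subunit of SCF ubiquitin ligases, was at 58.8 ± 1.12 FPKM in BACH1-KO and 96.1 ± 1.16 FPKM in WT (log2 fold change -0.70). Skp2, the F-box protein that directs p27 to breakdown, fell to 21.7 ± 0.229 FPKM in BACH1-KO, against 29.0 ± 0.565 FPKM in WT. Its cofactor Cks1b fell to 297 ± 4.47 FPKM in BACH1-KO, against 369 ± 9.41 FPKM in WT (SD, n = 3 each; both named after their values were seen). The scaffold gene Cul1 rose, with 55.9 ± 0.458 FPKM in BACH1-KO and 40.5 ± 3.67 FPKM in WT. Skp1a rose to 572 ± 3.11 FPKM in BACH1-KO, against 498 ± 8.01 FPKM in WT. Rnf123 rose to 2.27 ± 0.139 FPKM in BACH1-KO, against 1.61 ± 0.276 FPKM in WT (SD, n = 3 each). Fbxo31 also rose, and Ambra1 and Gsk3b also fell.

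Of 6 genes acting for or against CDK activation, 2 rose, 1 fell (Cdc25b) and 3 did not pass (Cdc25a, Cdk7 and Wee1). Those that rose were Ccnh and Mnat1, subunits of the CDK-activating kinase. Cdc25a, the phosphatase that activates CDK2, was at 25.1 ± 0.206 FPKM in BACH1-KO and 26.9 ± 0.956 FPKM in WT (SD, n = 3 each; limma adjusted p = 0.0546). Of the 4 cyclins and kinase of S and M phase, 2 rose and 2 fell. Cdk1 rose to 127 ± 2.15 FPKM in BACH1-KO, against 116 ± 4.86 FPKM in WT, and Ccnb2 fell to 126 ± 5.03 FPKM in BACH1-KO, against 178 ± 9.34 FPKM in WT. Ccna2, the cyclin that follows cyclin E on CDK2, was at 104 ± 2.88 FPKM in BACH1-KO and 110 ± 1.44 FPKM in WT (SD, n = 3 each; log2 fold change -0.08, limma adjusted p = 0.0467).

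All 16 E2F target genes passed the test, 12 lower and 4 higher, with a median log2 fold change of -0.22. Tk1, thymidine kinase, was at 67.6, 70.1 and 72.2 FPKM in BACH1-KO and 155, 164 and 169 FPKM in WT (log2 fold change -1.20, SE 0.04, limma adjusted p = 1.36e-07). Rrm1, a subunit of ribonucleotide reductase, fell to 74.0 ± 2.07 FPKM in BACH1-KO, against 118 ± 2.95 FPKM in WT, and the replicative helicase gene Mcm4 to 77.2 ± 0.845 FPKM in BACH1-KO, against 119 ± 3.51 FPKM in WT (SD, n = 3 each). Mcm2, another subunit gene of that helicase, had the largest rise of the list, with 155 ± 3.86 FPKM in BACH1-KO and 123 ± 1.60 FPKM in WT. Of all tested genes above 100 FPKM, 57.6% fell.

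**Figure D4:**
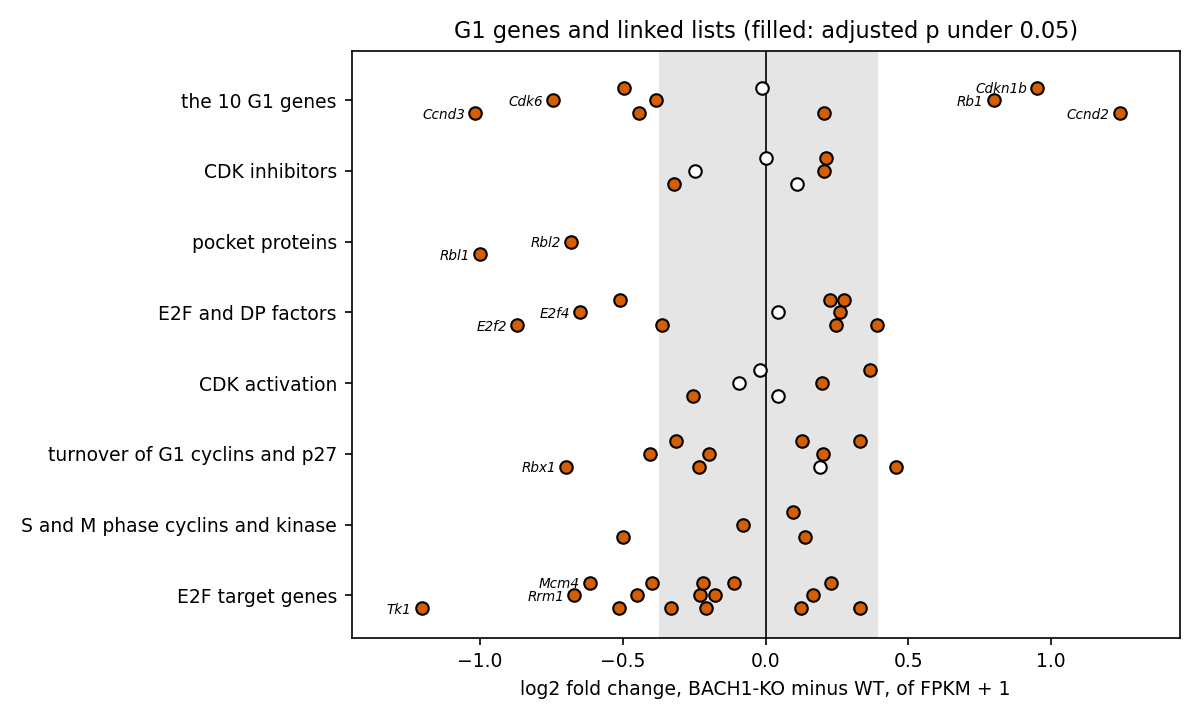
Log2 fold change of FPKM + 1, BACH1-KO minus WT (x axis), of the 10 G1 genes (top) and of the tested genes of each linked list, filled where limma's adjusted p was under 0.05, with the 25th to 75th percentile of all tested genes in grey. The pocket proteins Rbl1 and Rbl2 lie at -1.00 and -0.68, opposite to Rb1 at 0.80, and 12 of 16 E2F target genes lie left of 0.

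Likeness of pattern was measured as the root-mean-square difference of log2(FPKM + 1) over the 6 libraries after each gene was centred on its own mean. Nearest to Ccnd3 were Sec61a2 (0.012), Nsun2 (0.020) and Slc2a1 (0.020), the last encoding the glucose transporter GLUT1. Nearest to Ccnd1 were Spin1 (0.018), Mpp7 (0.019) and Polr2j (0.019). Nearest to Ccnd2 were Zfp27 (0.014), Rbm44 (0.044) and Coa6 (0.046), and nearest to Cdkn1b were Hlcs (0.039), Pgrmc1 (0.039) and Cenpp (0.040). With 2 genotypes of 3 libraries, this measure mainly finds genes whose log2 fold change is of the same size.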

How the data were processed

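The authors deposited FPKM per gene symbol for 6 libraries, made with Cufflinks on mm10 per the submitters' processing notes. Not given in the sources used here are the aligner, annotation, versions and strand setting. Library titles could not be tied to the table's columns, so each column served as an unnumbered replicate of its genotype. Rows with a number in place of a symbol (23, 0.0987% of summed FPKM) were left out.

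Log2(FPKM + 1) was fitted with limma 3.58.1 in R 4.3.3 (eBayes with trend) to genes averaging 1 FPKM or more, BACH1-KO minus WT, two-sided, Benjamini-Hochberg adjusted over all 12187, threshold 0.05, and the procedure was tested on simulated data. The simulation had few changed genes and independent noise in each library, whereas 77.0% of tested genes were called here. It therefore does not vouch for the calls in these libraries. Positions are from GENCODE on mm10. The genes and lists were chosen with earlier results of these data known. Pathway genes named are up to 3 per list, past the threshold with a log2 fold change of 0.5 or more in size. Other named genes were chosen after their values were seen. Alternatives changed pseudocount, filter, scaling, prior variance, tested fold and libraries.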

Additional observations from a re-analysis of the deposited data

How the results depend on the processing

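Ccnd2, Ccnd3, Cdkn1b and Rb1 kept their direction and call under every alternative that gave a value (Ccnd2 was not tested with a filter at 5 FPKM). Over these alternatives the log2 fold change ran from 0.93 to 1.63 for Ccnd2, the highest with a pseudocount of 0.1, from -1.04 to -0.87 for Ccnd3, from 0.64 to 1.01 for Cdkn1b and from 0.70 to 0.92 for Rb1. Tested with limma's treat against a fold change of 1.5, Ccnd1 (log2 fold change -0.38), Cdk4 (0.20), Cdk6 (-0.75, adjusted p = 0.0688), Ccne1 (-0.44) and Cdk2 (-0.50) were not called, which follows from the stricter threshold. Then 1 of the 10 genes was lower, 1325 of all genes were higher and 994 lower, and 0 linked genes were higher and 3 lower. Ccne2 was 0.01 with median-of-ratios scaling, 0.04 with equal FPKM sums, 0.04 without the hepatocyte markers and between -0.04 and 0.02 with 1 library left out, never called. With a filter at 5 FPKM, 2942 of all genes were higher, among fewer tested. The ratio of the D-type cyclin sum was 0.576 with equal FPKM sums and 0.577 without the hepatocyte markers, and that of the E-type sum 0.784 and 0.785. Leaving out any 1 library gave 4 of the 10 genes higher and 5 lower, and 15 to 18 linked genes higher and 26 to 27 lower. Summed FPKM was 762745 to 766086 in BACH1-KO and 785800 to 805118 in WT libraries. With equal FPKM sums 20 linked genes were higher and 24 lower. Quantile normalization gave 16 linked genes higher and 22 lower. The named linked genes Rbl2, E2f2, E2f4, E2f8, Rrm1 and Mcm4 were not called against a fold change of 1.5, and Rbl1, Rbx1 and Tk1 were. No paired analysis was possible because the columns carry no number that the labels tie to a title. FPKM gives no absolute depth, so the counting error of the low genes, Ccnd2 foremost, is unknown.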

Other observations

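Transcripts of the MYC family, whose proteins bind the E-box letters found 4 times before the Cdk4 start and in a single copy before the Cdk6 start, are set beside both kinases here as values. Myc was at 1.33, 1.80 and 1.19 FPKM in BACH1-KO, against 16.9, 9.50 and 10.9 FPKM in WT, and fell (log2 fold change -2.43, limma adjusted p = 8.02e-06). Mycn was at 44.2, 41.6 and 41.9 FPKM in BACH1-KO and 41.3, 40.8 and 41.0 FPKM in WT, and did not pass the test (log2 fold change 0.05, limma adjusted p = 0.220). Over the same libraries Cdk4 rose with a log2 fold change of 0.20 and Cdk6 fell with a log2 fold change of -0.75. A link of Myc or Mycn to either kinase was not tested.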
